A study of Mus musculus with 6 samples.

Results

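The glycolysis and hypoxia-responsive genes are 36 genes that code for glucose and lactate transporters, the enzymes of glycolysis, the kinases that set the fate of pyruvate, and genes known to respond to low oxygen. They were chosen by symbol, as the rows of the deposited gene table whose Ensembl ID carries 1 of 36 fixed symbols in the GENCODE M21 annotation, and all 36 symbols were found among 43629 gene IDs. The rule uses symbols and no measured value, but the list of symbols was drawn up with earlier results of these data known. All 36 passed the filter on low counts.

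RNA-seq was made from leukaemic mice at the end point of disease, on a C57BL/6 background, with 1 library per sample. The Gata2+/f group held 3 libraries (replicates 7, 9 and 11), and the Gata2+/+ group held 3 libraries (replicates 3, 5 and 6). Every mouse, controls included, carried the Cbfb-MYH11 knockin, which models the fusion made by the inversion of chromosome 16 in human acute myeloid leukaemia, and the question was how reduced Gata2 alters that leukaemia. The cells were bone marrow cells sorted for c-kit after freezing and thawing; the labels name no age, sex, or driver of recombination of the f allele. Library totals were 53789568 to 67854631 counts, at which 3 counts correspond to 0.0442 to 0.0558 CPM (a gene's count relative to the scaled library total), so counting error was small for nearly every gene described here.

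Gata2, the haematopoietic transcription factor that the groups differ in, had 498, 273 and 264 CPM in Gata2+/f libraries, against 886, 887 and 737 CPM in Gata2+/+ libraries, with no overlap. Kit, the receptor the cells were sorted by, had 193, 175 and 328 CPM in Gata2+/f libraries, against 826, 1222 and 1466 CPM in Gata2+/+ libraries (log2 fold change -2.34, edgeR adjusted p = 0.0955, DESeq2 adjusted p = 2.3e-06). The groups also differed in markers of other marrow cells. The summed level of 20 late neutrophil genes was 5534 to 13707 CPM in Gata2+/f libraries and 586 to 1957 CPM in Gata2+/+ libraries, and 14 monocyte genes summed to 1653 to 5063 CPM in Gata2+/f libraries and 499 to 1492 CPM in Gata2+/+ libraries. The sum of 12 mast cell and basophil genes was lower in Gata2+/f libraries (920 to 3566 CPM, against 9138 to 10880 CPM in Gata2+/+ libraries), with 9 of 10 tested genes fitted lower. The sums of 13 erythroid genes (2374 to 6628 CPM, against 6751 to 10556 CPM in Gata2+/+) and of 10 megakaryocyte genes (123 to 242 CPM, against 638 to 816 CPM in Gata2+/+) were lower too, but their genes were divided: 8 of 13 erythroid genes were fitted higher in Gata2+/f (median log2 fold change 0.84), and 4 of 8 tested megakaryocyte genes higher and 4 lower (median 0.017). In the megakaryocyte list Gp6 was at 0 in all 6 libraries. Lymphoid genes (13) summed to 37.5 to 126 CPM in Gata2+/f libraries and 13.8 to 49.3 CPM in Gata2+/+ libraries, and 24 proliferation genes to 3588 to 5383 CPM in Gata2+/f libraries and 1500 to 2735 CPM in Gata2+/+ libraries. A different make-up of the sorted cells and a different level per cell cannot be told apart in these bulk libraries, and the part of these markers in any difference below was not tested.

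Glycolysis splits glucose into pyruvate in the cytosol. Hexokinases trap glucose as glucose 6-phosphate, phosphofructokinase commits it to breakdown, and the lower steps yield ATP and pyruvate, which lactate dehydrogenase turns into lactate or pyruvate dehydrogenase passes to mitochondria. When oxygen is low, HIF-1 alpha escapes hydroxylation by the EGLN prolyl hydroxylases and binds short DNA elements near many of these genes, raising glucose transport, glycolysis and lactate export. Haematopoietic stem cells in the marrow are known for high HIF-1 activity and reliance on glycolysis, and neutrophils for glycolytic energy supply.

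The core letters of the hypoxia response element stood in a larger share of the members' promoters than of all promoters. RefSeq windows (GRCm38.p6, 250 bases before to 50 after a start) were listed for 33 of the 36 members, in 50 windows; Slc2a3, Bnip3l and Ndrg1 had no entry. Read on both strands, ACGTG stood in 28 of 50 member windows (56%), and in 25% of the 13614 windows of all tested genes. GCGTG, the other form of the element, stood in 62% of member windows and 48.7% of all windows, and at least 1 of these motifs in 84% of member windows and 60.2% of all windows. CACGTG, the E-box, which contains ACGTG, stood in 12% of member windows and 9.77% of all windows, and AGATAA, a form of the GATA motif, in 8% of member windows and 6.99% of all windows. Members have up to 4 windows, and counted per gene AGATAA stood in 6.06% of members and 8.34% of all genes, and ACGTG in 75.8% of members and 28.9% of all genes. The list takes in genes known as targets of HIF, so the larger share cannot be parted from how the genes were chosen. Promoters of like base content were not compared. A match is a description of letters, not of a bound site. Below are stretches before the start, free of annotated exons, of Ddit4 and Hk3 (the members called by DESeq2 that have a window), of Pfkfb3 and Pfkfb4 (an isozyme pair whose balance differed without overlap), of Ldha and Ldhb (the lactate dehydrogenases), and of Slc16a3 and P4ha1 (members highest in Gata2+/f replicate 9). Capitals mark ACGTG or GCGTG on either strand, and each stretch runs 5′ to 3′ on the strand of its gene. They lie at chr10:59951835-59951984 (minus strand) for Ddit4, chr13:55021386-55021535 (minus strand) for Hk3, chr2:11554078-11554179 (minus strand) for Pfkfb3, chr9:108991652-108991777 (plus strand) for Pfkfb4, chr7:46845654-46845803 (plus strand) for Ldha, chr6:142507958-142508107 (minus strand) for Ldhb, chr11:120948903-120949052 (plus strand) for Slc16a3 and chr10:59323146-59323295 (plus strand) for P4ha1.
Ddit4: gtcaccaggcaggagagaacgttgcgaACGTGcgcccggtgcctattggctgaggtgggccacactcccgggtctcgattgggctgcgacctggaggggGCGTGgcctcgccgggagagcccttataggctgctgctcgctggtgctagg
Hk3: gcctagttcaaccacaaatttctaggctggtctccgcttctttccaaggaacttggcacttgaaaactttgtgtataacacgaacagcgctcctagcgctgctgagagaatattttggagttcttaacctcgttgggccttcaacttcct
Pfkfb3: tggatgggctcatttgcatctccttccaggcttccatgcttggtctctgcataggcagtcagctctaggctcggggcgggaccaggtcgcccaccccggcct
Pfkfb4: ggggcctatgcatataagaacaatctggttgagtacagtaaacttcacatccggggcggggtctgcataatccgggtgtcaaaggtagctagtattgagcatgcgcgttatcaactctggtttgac
Ldha: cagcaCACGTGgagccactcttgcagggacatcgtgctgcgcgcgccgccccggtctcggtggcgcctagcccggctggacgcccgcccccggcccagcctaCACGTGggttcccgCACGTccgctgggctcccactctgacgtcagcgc
Ldhb: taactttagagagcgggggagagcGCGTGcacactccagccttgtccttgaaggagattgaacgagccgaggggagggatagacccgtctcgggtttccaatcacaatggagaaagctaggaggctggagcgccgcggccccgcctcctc
Slc16a3: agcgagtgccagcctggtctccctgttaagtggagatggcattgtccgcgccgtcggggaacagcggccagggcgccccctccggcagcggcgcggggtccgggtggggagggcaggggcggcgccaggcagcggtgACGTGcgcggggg
P4ha1: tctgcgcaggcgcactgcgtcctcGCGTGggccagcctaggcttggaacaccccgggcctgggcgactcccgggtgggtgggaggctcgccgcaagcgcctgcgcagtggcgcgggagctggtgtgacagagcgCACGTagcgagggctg

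The stretch of Ldha carried the letters in 3 places, 2 of them as the palindrome CACGTG, whose letters read as ACGTG on both strands. Ddit4 and P4ha1 each carried 2 matches in the stretch shown, and Ldhb and Slc16a3 each 1. No match lay in the stretches of Hk3, Pfkfb3 or Pfkfb4, where the window read held 1 match outside the bases shown.

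Across the 36 genes there was no common shift between the genotypes. Fitted log2 fold changes of Gata2+/f over Gata2+/+ were above 0 for 18 members and below 0 for 18, with a median of 0.020, beside 0.019 over all 15432 genes tested. edgeR's quasi-likelihood test called 0 members at an adjusted p under 0.05, and it called 0% of all genes. At an unadjusted p under 0.05 it had 6 members (16.7%), beside 22.6% of all genes. DESeq2 called 4 members, of which Hk3 was higher in Gata2+/f (933 genes in all, 6.05%) and Ddit4, Ndrg1 and Slc2a3 were lower (876 genes, 5.68%); limma voom and the newer form of edgeR's test (which called 0.207% of all genes) called 0 members. The groups did not overlap for 7 members (19.4%), beside 29.7% of all genes; 2 were higher in Gata2+/f (background 13.1%) and 5 lower (background 16.6%). By these counts the members differed between genotypes no more often than genes at large.

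**Figure D1:**
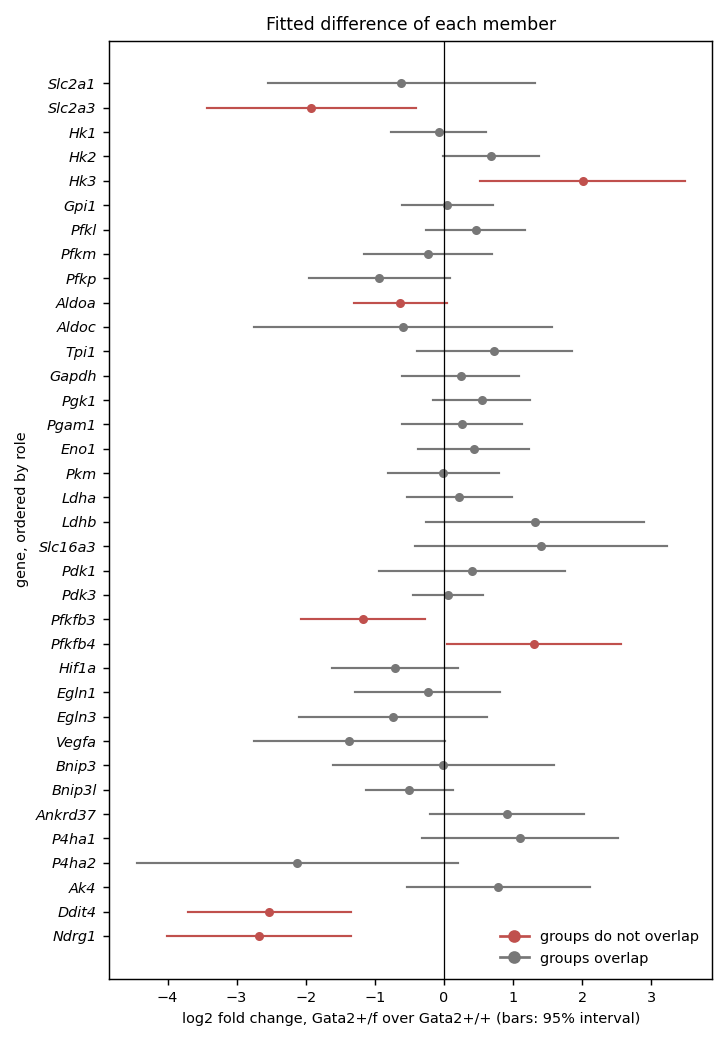
Log2 fold change of Gata2+/f over Gata2+/+ (horizontal axis) for each of the 36 genes (rows, ordered by role), with its 95% interval from edgeR's quasi-likelihood fit; red marks the 7 genes whose groups did not overlap. Ddit4, Ndrg1 and Slc2a3 lie farthest below 0 among the genes whose interval leaves it out, and Hk3 lies farthest above it.

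**Figure D2:**
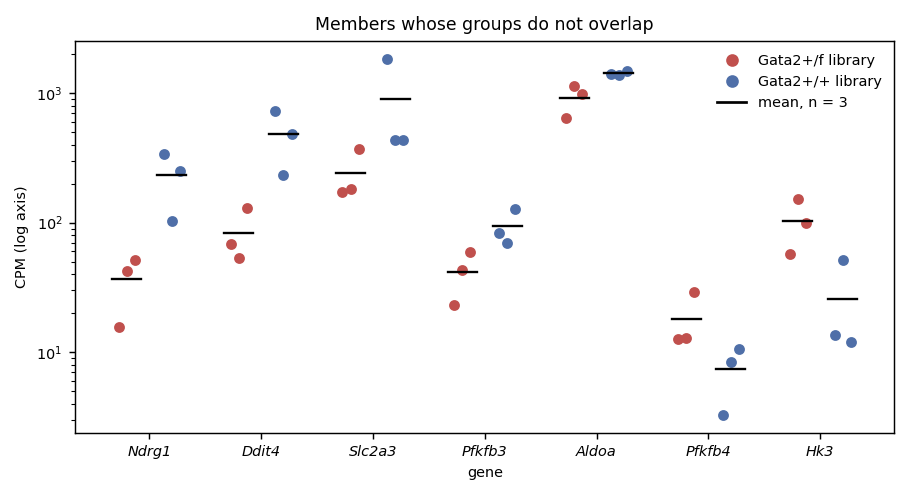
CPM, on a log axis, of the 7 genes whose groups did not overlap, 1 point per library, 3 Gata2+/f libraries left of 3 Gata2+/+ libraries. Hk3 and Pfkfb4 are higher in every Gata2+/f library, and the other 5 genes are lower.

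Glucose enters cells through the SLC2A transporters, of which Slc2a1 (GLUT1) is widespread and Slc2a3 (GLUT3) has high affinity. Slc2a3 (ENSMUSG00000003153, GRCm38 chr6:122727809-122801640, minus strand) had 171, 181 and 369 CPM in Gata2+/f libraries, against 1856, 438 and 433 CPM in Gata2+/+ libraries. The groups did not overlap, but Gata2+/+ replicate 3 stood far above its group. As a fitted log2 ratio this was -1.92 (SE 0.65, 95% interval -3.43 to -0.41, edgeR adjusted p = 0.162, DESeq2 adjusted p = 0.0404), and without Gata2+/+ replicate 3 it was -0.81. Gata2+/+ replicate 3 was also the library with the highest summed level of 11 genes that respond to handling of cells, at 34368 CPM, beside 13061 and 7558 CPM in the other Gata2+/+ libraries and 2469, 4235 and 7903 CPM in Gata2+/f libraries. All 11 handling genes were fitted lower in Gata2+/f (median log2 fold change -2.01), and DESeq2 called 5 of them lower (5.68% of all genes). The part of handling in the level of Slc2a3 was not tested. Slc2a1 had 3.96, 82.4 and 49.7 CPM in Gata2+/f libraries, against 75.6, 58.7 and 74.2 CPM in Gata2+/+ libraries. Its level in Gata2+/f replicate 9 was 20.8 times that in replicate 7, and the log2 fold change of -0.62 had an interval from -2.54 to 1.31.

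Of the hexokinases, Hk1 is the general form, Hk2 the form of muscle and tumours, and Hk3 a form of myeloid cells. Hk3 (ENSMUSG00000025877, chr13:55005985-55021385, minus strand) had 57.4, 152 and 98.7 CPM in Gata2+/f libraries, against 13.4, 51.4 and 12 CPM in Gata2+/+ libraries. Its groups did not overlap, although Gata2+/+ replicate 5 came close to Gata2+/f replicate 7. Its fitted difference on the log2 scale was 2.01 (SE 0.64, 95% interval 0.52 to 3.49, edgeR adjusted p = 0.149, DESeq2 adjusted p = 0.0241), and without Gata2+/+ replicate 5 it was 3.01. Gata2+/+ replicate 5 was also the Gata2+/+ library with the highest sum of late neutrophil markers. Among Gata2+/f libraries that sum was highest in replicate 11, at 13707 CPM, against 7307 CPM in replicate 9, where Hk3 was highest. The part of neutrophil content in the level of Hk3 was not tested. Hk1 averaged 650 ± 199 CPM in Gata2+/f libraries and 688 ± 113 CPM in Gata2+/+ libraries (SD, n = 3 each), and Hk2 averaged 62.2 ± 20.8 CPM in Gata2+/f and 38.9 ± 4.68 CPM in Gata2+/+. The interval for Hk2 ran from -0.02 to 1.37 on the log2 scale. Per kb of merged exon, Hk3 held 12.5%, 37.5% and 24.6% of the hexokinase level in Gata2+/f libraries, against 3.63%, 16.4% and 3.38% in Gata2+/+ libraries, a difference of 17.1 percentage points that overlapped (exact permutation p = 0.2, Benjamini-Hochberg adjusted p = 0.56 over 14 isozyme shares). It was 10.8 points without Gata2+/f replicate 9 and 9.70 points with no division by length. Hk1 held the rest for the most part, at 82.3%, 51.8% and 63.6% in Gata2+/f libraries and 89.6%, 77.0% and 89.3% in Gata2+/+ libraries.

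The steps from glucose 6-phosphate to triose phosphates had 1 gene whose groups did not overlap. Aldoa (ENSMUSG00000030695, chr7:126795234-126800751, minus strand), the main aldolase, which splits fructose 1,6-bisphosphate, had 639, 1141 and 990 CPM in Gata2+/f libraries, against 1418, 1394 and 1480 CPM in Gata2+/+ libraries. The Gata2+/+ libraries lay close together and the Gata2+/f libraries spread below them. Fitted as log2, the difference was -0.63 (SE 0.29, 95% interval -1.30 to 0.04, edgeR adjusted p = 0.243, DESeq2 adjusted p = 0.184). Gpi1, the isomerase, averaged 978 ± 290 CPM in Gata2+/f libraries and 945 ± 8.83 CPM in Gata2+/+ libraries (n = 3 each). Its mean was near the same, but the spread was far wider in Gata2+/f. The phosphofructokinases, which control flux into the pathway, averaged 111 ± 44.7 CPM in Gata2+/f and 80.6 ± 7.52 CPM in Gata2+/+ for the liver form Pfkl, 93.5 ± 48.0 CPM in Gata2+/f and 110 ± 32.5 CPM in Gata2+/+ for the muscle form Pfkm, and 111 ± 65.8 CPM in Gata2+/f and 213 ± 68.8 CPM in Gata2+/+ for the platelet form Pfkp (n = 3 each). All 3 overlapped between groups, as did their shares of the family. Pfkl held 50.8% of the family in Gata2+/f replicate 9, and 17.9% and 29.2% in the other Gata2+/f libraries, against 16.8% to 24.7% in Gata2+/+ libraries. Pfkm and Pfkp each overlap a gene on the other strand (Senp1, which reached 117 CPM, and Pitrm1, which reached 280 CPM), so their counts depend on a strand setting that is not given in the sources used here. Aldoc, a minor aldolase in these cells, had 1.2, 29.5 and 6.04 CPM in Gata2+/f libraries, against 20.4, 17.1 and 17.9 CPM in Gata2+/+ libraries, and Aldoa held 99.0% of the aldolase level per kb in Gata2+/f and 98.9% in Gata2+/+.

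The enzymes from triose phosphate isomerase to pyruvate kinase did not separate the genotypes but were all highest in Gata2+/f replicate 9. Tpi1, which interconverts the triose phosphates, had 362, 1031 and 315 CPM in Gata2+/f libraries, against 327, 268 and 438 CPM in Gata2+/+ libraries. Gapdh, often used as a reference gene, had 1936, 4024 and 1993 CPM in Gata2+/f libraries, against 2452, 1957 and 2318 CPM in Gata2+/+ libraries. Replicate 9 aside, both genes lay within the range of the Gata2+/+ libraries or near it. Pgk1, which makes the first ATP of the pathway, had 281, 562 and 382 CPM in Gata2+/f libraries and 299, 234 and 307 CPM in Gata2+/+ libraries. Pgam1, the mutase, averaged 293 ± 138 CPM in Gata2+/f and 245 ± 58.1 CPM in Gata2+/+, and Eno1, the enolase, 852 ± 347 CPM in Gata2+/f and 632 ± 130 CPM in Gata2+/+ (n = 3 each). Pkm, the pyruvate kinase of marrow cells and tumours, averaged 1044 ± 347 CPM in Gata2+/f and 1053 ± 322 CPM in Gata2+/+, with a log2 fold change of -0.01 that turns to 0.11 under upper quartile scaling. Log2 fold changes of Tpi1, Gapdh, Pgk1, Pgam1 and Eno1 ran from 0.24 to 0.72, and every interval took in 0. The gene table sums the splice forms of Pkm, so the balance of its M1 and M2 forms is not analysed here.

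Per kb of merged exon Gapdh had the highest level of all members, at 641 CPM per kb in Gata2+/f and 543 CPM per kb in Gata2+/+. In Gata2+/f, next came Aldoa with 317 CPM per kb (492 in Gata2+/+), Ldha with 287 (246 in Gata2+/+) and Pkm with 209 (211 in Gata2+/+). In Gata2+/+, Ddit4 lay between Aldoa and Ldha, with 275 CPM per kb, against 47.7 in Gata2+/f. The lowest was P4ha2, with 0.029 CPM per kb in Gata2+/f and 0.127 in Gata2+/+. The 5 enzymes from Gapdh to Pkm summed to 3708, 7694 and 4342 CPM in Gata2+/f libraries, against 4387, 3833 and 5136 CPM in Gata2+/+ libraries. The 17 enzyme genes from hexokinase to lactate dehydrogenase summed to 7595, 13387 and 8475 CPM in Gata2+/f libraries, against 9124, 8027 and 10344 CPM in Gata2+/+ libraries. Gata2+/f replicate 9 was the highest and replicate 7 the lowest library for both sums, so the Gata2+/f group took in the whole range of the Gata2+/+ group. Of the 17 genes, 11 had a log2 fold change above 0 and 6 below, with a median of 0.24.

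**Figure D3:**
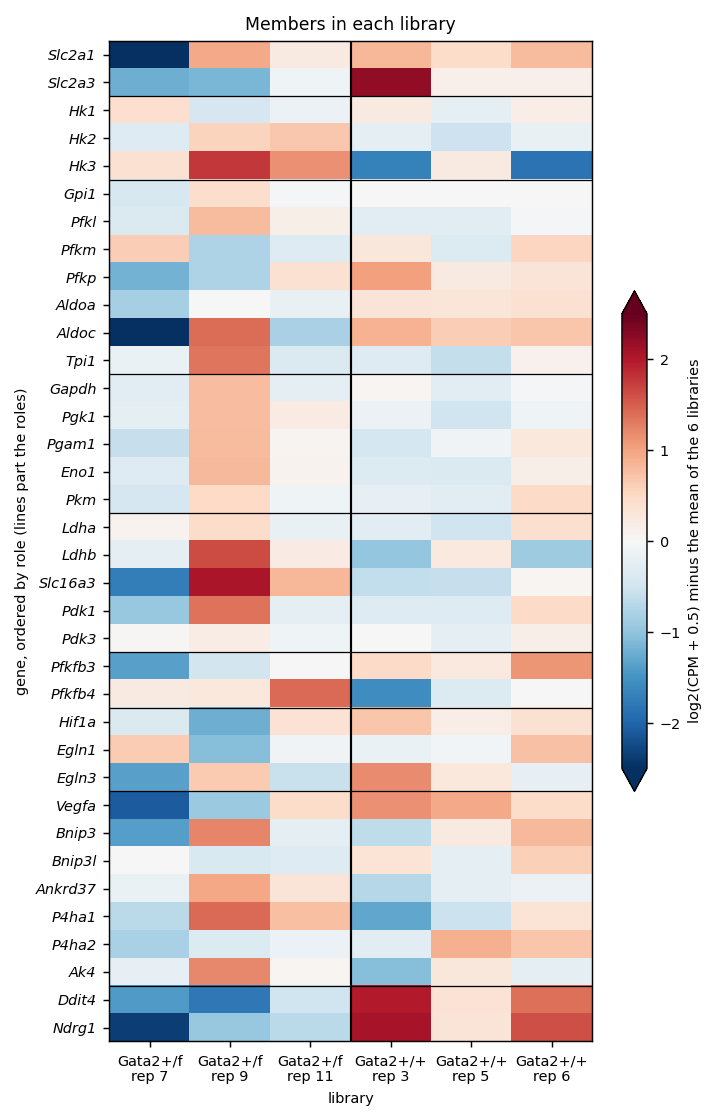
Level of each of the 36 genes (rows, by role) in each library (columns, Gata2+/f left of Gata2+/+) as log2(CPM + 0.5) minus its mean over the 6 libraries. The column of Gata2+/f replicate 9 is mostly red for the glycolytic enzymes, that of replicate 7 mostly blue, and Ddit4 and Ndrg1 are blue in all 3 Gata2+/f columns.

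The genes that set the fate of pyruvate overlapped between the genotypes. Ldha, which makes lactate, averaged 950 ± 214 CPM in Gata2+/f and 816 ± 278 CPM in Gata2+/+. It held 98.5% of lactate dehydrogenase per kb in Gata2+/f and 99.1% in Gata2+/+. Ldhb, the heart form, had 3.35, 13.4 and 4.68 CPM in Gata2+/f libraries, against 1.82, 4.87 and 1.93 CPM in Gata2+/+ libraries. Slc16a3 (MCT4), the lactate exporter of glycolytic cells, had 7.95, 115 and 49.6 CPM in Gata2+/f libraries, against 18, 18.4 and 28.7 CPM in Gata2+/+ libraries. Slc16a3 was thus both lowest and highest in the Gata2+/f group, with 14.4 times more in replicate 9 than in replicate 7, and its log2 fold change of 1.40 had an interval from -0.42 to 3.22. Pdk1, a kinase that holds pyruvate dehydrogenase inactive, had 19.9, 101 and 33.5 CPM in Gata2+/f libraries, against 31.2, 31.1 and 54.4 CPM in Gata2+/+ libraries. Its relative Pdk3 averaged 47.3 ± 4.99 CPM in Gata2+/f and 45.5 ± 5.95 CPM in Gata2+/+, the narrowest interval of the members at -0.44 to 0.56.

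Pfkfb3 and Pfkfb4 make and remove fructose 2,6-bisphosphate, the strongest activator of phosphofructokinase, and their levels lay on opposite sides. Pfkfb3 (ENSMUSG00000026773, chr2:11471433-11554077, minus strand), the form with high kinase activity, had 22.9, 42.7 and 58.9 CPM in Gata2+/f libraries, against 83.2, 70.1 and 127 CPM in Gata2+/+ libraries. Pfkfb4 (ENSMUSG00000025648, chr9:108991778-109032228, plus strand) had 12.6, 12.8 and 29.1 CPM in Gata2+/f libraries, against 3.28, 8.31 and 10.5 CPM in Gata2+/+ libraries. Neither gene overlapped between groups, Pfkfb3 being lower and Pfkfb4 higher in every Gata2+/f library. The log2 fold change of Pfkfb3 was -1.17 (SE 0.39, 95% interval -2.07 to -0.27, edgeR adjusted p = 0.157, DESeq2 adjusted p = 0.0796), and that of Pfkfb4 was 1.3 (SE 0.54, 95% interval 0.04 to 2.56, edgeR adjusted p = 0.214, DESeq2 adjusted p = 0.107). Per kb, Pfkfb4 held 45.9%, 31.7% and 43.4% of their joint level in Gata2+/f libraries, against 5.76%, 15.5% and 11.4% in Gata2+/+ libraries. Pfkfb1 and Pfkfb2, which are not members, were left out of this joint level, so these are not shares of the whole family. Pfkfb2 averaged 2.27 CPM per kb in Gata2+/f and 4.46 in Gata2+/+, lower without overlap, beside 3.72 and 1.51 for Pfkfb4. Pfkfb1 averaged 0.827 CPM per kb in Gata2+/f and 0.744 in Gata2+/+. The mean share of Pfkfb3 was 59.7% ± 7.56 in Gata2+/f and 89.1% ± 4.90 in Gata2+/+ (SD, n = 3 each), a difference of -29.5 percentage points with an exact two-sided permutation p = 0.1, the smallest that 3 against 3 libraries can give (Benjamini-Hochberg adjusted p = 0.56 over 14 shares). This ratio is taken within a library and does not move with its scaling.

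**Figure D4:**
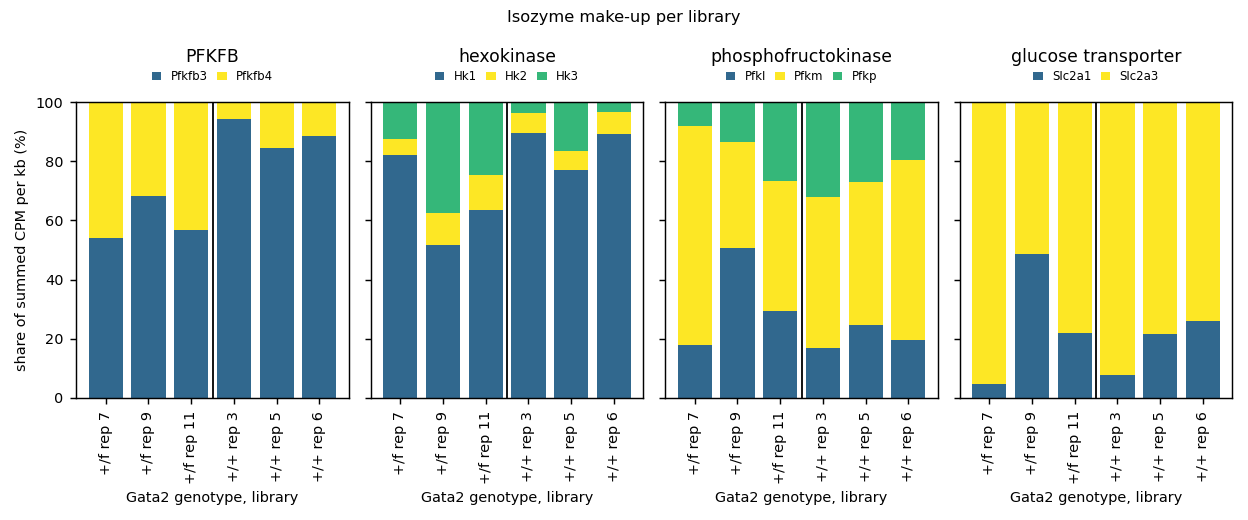
Share of the summed CPM per kb (vertical axis, %) held by each member isozyme of 4 families in each library. The 3 Gata2+/f libraries are left of the line and the 3 Gata2+/+ libraries right of it. Each sum takes in the members of a family only, so Pfkfb1 and Pfkfb2 are left out. Of the joint level of Pfkfb3 and Pfkfb4, Pfkfb4 takes 31.7% to 45.9% in Gata2+/f and 5.76% to 15.5% in Gata2+/+. The shares of the other 3 families overlap.

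Hif1a, the oxygen-regulated subunit of HIF-1, averaged 74.4 ± 38.8 CPM in Gata2+/f libraries and 121 ± 23.1 CPM in Gata2+/+ libraries, with overlapping groups (log2 fold change -0.71, edgeR adjusted p = 0.315). HIF-1 alpha is controlled chiefly as a protein, which RNA counts do not show. Egln1 and Egln3, the hydroxylases that mark it for decay, averaged 50.6 ± 27.9 and 16.5 ± 11.9 CPM in Gata2+/f and 59.6 ± 21.8 and 27.5 ± 14.3 CPM in Gata2+/+ (n = 3 each). None of these 3 genes separated the groups.

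The targets of HIF split by gene. Vegfa, the vascular growth factor, had 11, 25 and 66.2 CPM in Gata2+/f libraries, against 107, 92.4 and 65.7 CPM in Gata2+/+ libraries. Its groups met only at Gata2+/f replicate 11 and Gata2+/+ replicate 6, and the log2 fold change was -1.37 (95% interval -2.75 to 0.01, edgeR adjusted p = 0.223). Leaving out Gata2+/f replicate 11 gave -2.26, and leaving out replicate 7 of that group gave -0.90. Bnip3 and Bnip3l, receptors for the removal of mitochondria, averaged 15.8 ± 13.9 and 218 ± 30.4 CPM in Gata2+/f and 15.9 ± 7.72 and 308 ± 84.2 CPM in Gata2+/+. P4ha1, a collagen prolyl hydroxylase subunit, averaged 28.6 ± 18 CPM in Gata2+/f and 13.4 ± 7.70 CPM in Gata2+/+ (log2 fold change 1.10, interval -0.33 to 2.52). Its relative P4ha2 had 1, 13 and 21 counts in Gata2+/f libraries, against 12, 69 and 62 counts in Gata2+/+ libraries, near the limit of what these libraries resolve. Per kb, P4ha1 held 99.9%, 99.7% and 99.3% of the pair's level in Gata2+/f libraries, against 97.7%, 93.8% and 97.2% in Gata2+/+ libraries, a difference of 3.43 percentage points without overlap (exact permutation p = 0.1, adjusted p = 0.56 over 14 shares). P4ha1 itself had 10.5, 46.5 and 28.9 CPM in Gata2+/f libraries, against 6.66, 11.7 and 21.8 CPM in Gata2+/+ libraries, and these overlapped. Ankrd37, a strongly hypoxia-induced gene of little known role, averaged 4.89 ± 2.16 CPM in Gata2+/f and 2.60 ± 0.614 CPM in Gata2+/+. Ufsp2, on the other strand at the same place, reached 77.3 CPM, so a share of the Ankrd37 counts depends on the strand setting. Ak4, a mitochondrial adenylate kinase, averaged 8.49 ± 5.05 CPM in Gata2+/f and 4.94 ± 2.37 CPM in Gata2+/+.

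Ddit4 and Ndrg1 had the largest differences of the members whose groups did not overlap. Ddit4 (ENSMUSG00000020108, chr10:59949669-59951834, minus strand), known as REDD1, restrains mTORC1 under low oxygen, energy stress and glucocorticoids. It had 68.4, 53.0 and 130 CPM in Gata2+/f libraries, against 731, 236 and 482 CPM in Gata2+/+ libraries. Ndrg1 (ENSMUSG00000005125, chr15:66929318-66969640, minus strand), a gene induced by hypoxia and metal chelation, had 15.6, 42.3 and 51.2 CPM in Gata2+/f libraries, against 342, 103 and 253 CPM in Gata2+/+ libraries. Every Gata2+/f library was below every Gata2+/+ library for both genes. Ddit4 was 5.77-fold lower in Gata2+/f (log2 fold change -2.53, SE 0.51, 95% interval -3.71 to -1.35, edgeR adjusted p = 0.0966, DESeq2 adjusted p = 0.000294), and Ndrg1 was 6.39-fold lower (log2 fold change -2.68, SE 0.57, 95% interval -4.01 to -1.35, edgeR adjusted p = 0.0966, DESeq2 adjusted p = 0.000462). Both missed the threshold of edgeR's test. Gata2+/+ replicate 3 was the highest library for Ddit4 and for Ndrg1, as it was for the handling genes. Without it the log2 fold changes were -2.04 and -2.22. Gata2+/+ replicate 6 had the next highest level of both genes. Its handling sum of 7558 CPM was below the 7903 CPM of Gata2+/f replicate 11. The part of handling in the levels of Ddit4 and Ndrg1 was not tested. Genes of chromosome 15, where Ndrg1 lies, had a median shift of -0.02, -0.12 and -0.23 (log2, against each gene's median) in Gata2+/f libraries and 0.34, -0.13 and 0.36 in Gata2+/+ libraries. The 2 libraries with a raised shift, Gata2+/+ replicates 3 and 6, were those with the highest Ndrg1, and the part of this shift in its difference was not tested.

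The 12 HIF and stress-responsive genes together summed to 527, 509 and 677 CPM in Gata2+/f libraries, against 1756, 860 and 1459 CPM in Gata2+/+ libraries. Ddit4, Bnip3l and Ndrg1 were the most abundant of the 12 in Gata2+/+. Of the 12, 3 had a log2 fold change above 0 and 9 below, with a median of -0.60 (over all tested genes 51.1% were above 0, with a median of 0.019). Of these genes 2 had no overlap between groups (16.7%), beside 29.7% of all genes.

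The members varied more within Gata2+/f than within Gata2+/+. The ratio of the highest to the lowest library had a median of 2.61 over the 36 genes in Gata2+/f and of 1.71 in Gata2+/+, and it was larger in Gata2+/f for 27 genes (75%). Over all tested genes the medians were 1.91 in Gata2+/f and 1.59 in Gata2+/+, and 63.7% were wider in Gata2+/f. For the 17 enzymes the medians were 2.19 in Gata2+/f and 1.42 in Gata2+/+, with 15 wider in Gata2+/f (88.2%). Gata2+/f replicate 9 was the highest library for 20 members (55.6%, background 22.4%) and for 12 of the 17 enzymes, and replicate 7 the lowest for 18 members (50%, background 18.9%). The highest library was Gata2+/f replicate 7 for 2 members (5.56%, background 20.1%), Gata2+/f replicate 11 for 2 (5.56%, background 12.7%), Gata2+/+ replicate 3 for 7 (19.4%, background 18.6%), Gata2+/+ replicate 5 for 1 (2.78%, background 11.4%) and Gata2+/+ replicate 6 for 4 (11.1%, background 14.9%). For 11 members (30.6%, background 6.18%) replicate 9 was more than 1.5 times every other library, a limit chosen after the values were seen: Hk3, Pfkl, Tpi1, Gapdh, Eno1, Ldhb, Slc16a3, Pdk1, Ankrd37, P4ha1 and Ak4. The gap between replicates 9 and 7 was 24.5 times for Aldoc, 6.55 times for Bnip3 and 5.04 times for Pdk1. The 2 libraries carry the same label, and their difference has no replicate of its own.

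**Figure D5:**
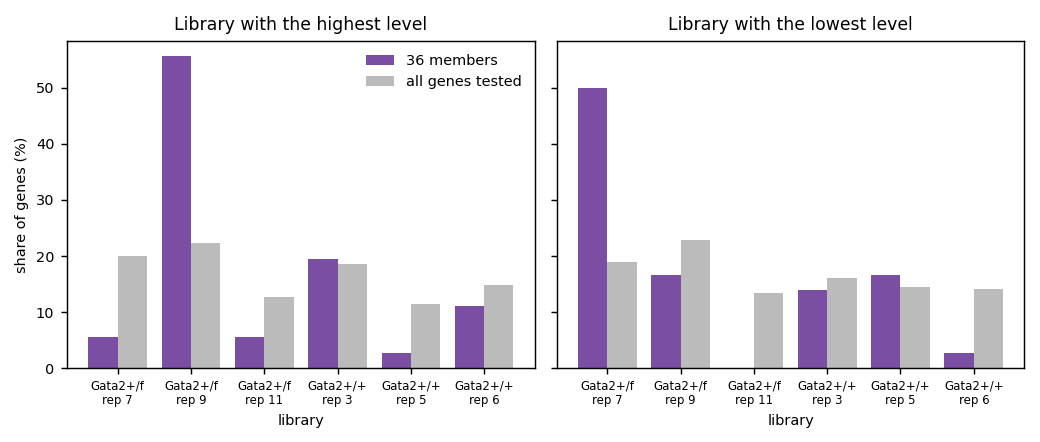
Percent of genes (vertical axis) whose highest or lowest level lay in each library (Gata2+/f left of Gata2+/+), for the 36 genes and for all 15432 tested genes. Gata2+/f replicate 9 holds the highest level of 55.6% of the 36 genes and replicate 7 the lowest of 50%.

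Of the 6 libraries, Gata2+/f replicate 9 had the lowest depth (53789568 counts) and Gata2+/f replicate 7 the highest (67854631 counts). The proliferation sum was 5383 CPM in Gata2+/f replicate 7 and 3774 CPM in replicate 9, and the late neutrophil sum was 5534 CPM in replicate 7 and 7307 CPM in replicate 9. The 434 genes of chromosome 6, where Tpi1, Gapdh, Hk2, Ldhb and Slc2a3 lie, had a median shift of 0.20 in replicate 9, and those of chromosome 8, where Egln1 and Ankrd37 lie, a shift of 0.42 in replicate 7 (log2). Whether depth, cell make-up, handling or gene dosage had a part in the high and low libraries was not tested.

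The pathways beside glycolysis were read from lists of genes that hold no member. Over all tested genes the groups did not overlap for 29.7% (13.1% higher and 16.6% lower in Gata2+/f), and DESeq2 called 11.7%. In the pentose phosphate pathway, which draws glucose 6-phosphate off for NADPH and ribose, all 11 genes were tested; 4 were higher and 1 lower in Gata2+/f without overlap (45.5%), and DESeq2 called 2 higher and 1 lower. G6pdx, its entry enzyme, had 162, 160 and 190 CPM in Gata2+/f libraries, against 72.7, 95.4 and 84.7 CPM in Gata2+/+ libraries (log2 fold change 1.02, edgeR adjusted p = 0.0966, DESeq2 adjusted p = 0.0017). Pgd, the next dehydrogenase, had 227, 234 and 303 CPM in Gata2+/f libraries, against 126, 128 and 144 CPM in Gata2+/+ libraries (log2 fold change 0.94, edgeR adjusted p = 0.0982, DESeq2 adjusted p = 0.0064). Shpk, the sedoheptulose kinase, was the lower gene (log2 fold change -0.92, DESeq2 adjusted p = 0.0443), and Rpia, the ribose phosphate isomerase, had a log2 fold change of 0.90 (DESeq2 adjusted p = 0.109). The 11 genes summed to 2323, 2053 and 1924 CPM in Gata2+/f libraries, against 1567, 1377 and 1694 CPM in Gata2+/+ libraries, with no overlap.

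Of 9 tested isozymes of glycolysis outside the 36, 2 were higher and 3 lower without overlap (55.6%), and DESeq2 called 2 higher. Adpgk, a glucokinase that uses ADP, had 90.6, 119 and 112 CPM in Gata2+/f libraries, against 58.2, 50.1 and 55.3 CPM in Gata2+/+ libraries (log2 fold change 0.98, DESeq2 adjusted p = 0.0021), and Tigar, a phosphatase that lowers fructose 2,6-bisphosphate, had 3.68, 8.96 and 4.84 CPM in Gata2+/f, against 1.0, 2.52 and 1.60 CPM in Gata2+/+ (log2 fold change 1.77, DESeq2 adjusted p = 0.0125). Eno2, the neuronal enolase, had 0.141, 0.201 and 1.27 CPM in Gata2+/f libraries, against 3.08, 2.84 and 27.0 CPM in Gata2+/+ libraries. Gata2+/+ replicate 6 thus stood far above its group, and DESeq2 gave Eno2 no adjusted p. Pfkfb2 had a log2 fold change of -0.97. Of 9 other glucose and lactate transporters, 3 were higher and 1 lower without overlap (44.4%) and DESeq2 called 0 (edgeR had 3 at an unadjusted p under 0.05); the smallest p were those of Slc2a10 (under 0.3 CPM in every library), Emb (log2 fold change 1.45), Slc2a9 (-0.84) and Slc16a7 (1.63).

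Of 11 genes of pyruvate dehydrogenase and the pyruvate carrier, 2 were higher and 0 lower without overlap (18.2%) and DESeq2 called 0; Pdhx and Pdha1, subunits of the complex, had log2 fold changes of 0.58 and 0.54. Of 19 genes of the TCA cycle, 5 were higher and 0 lower without overlap (26.3%), and DESeq2 called Idh3a, a subunit of the NAD-linked isocitrate dehydrogenase, with 155, 85.3 and 62.2 CPM in Gata2+/f libraries and 47.5, 38.2 and 52.1 CPM in Gata2+/+ libraries (log2 fold change 1.13, DESeq2 adjusted p = 0.0483). Of 13 glycogen and gluconeogenesis genes, 2 were higher and 1 lower without overlap (23.1%), and DESeq2 called 0.

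In the HIF pathway 0 of 14 tested genes were higher and 4 lower in Gata2+/f without overlap (28.6%), and DESeq2 called 1. Crebbp and Ep300, the coactivators that HIF recruits and that many other factors share, had log2 fold changes of -1.08 (edgeR adjusted p = 0.0966, DESeq2 adjusted p = 0.0058) and -1.13 (DESeq2 adjusted p = 0.0695). Crebbp had 51.9, 39.8 and 60.2 CPM in Gata2+/f libraries, against 118, 101 and 103 CPM in Gata2+/+ libraries. Cited2, which competes with HIF for those coactivators, had a log2 fold change of -1.29, and Vhl, which targets hydroxylated HIF for decay, one of -0.69. Of 28 other HIF targets, 3 were higher and 7 lower without overlap (35.7%), and DESeq2 called 2 each way. Kdm4b, a histone demethylase, had 31.2, 39.9 and 31.4 CPM in Gata2+/f libraries, against 84.8, 78.1 and 109 CPM in Gata2+/+ libraries (log2 fold change -1.40, edgeR adjusted p = 0.0955, DESeq2 adjusted p = 2.8e-05), and Stc2, stanniocalcin 2, 0.17, 1.55 and 2.99 CPM in Gata2+/f libraries, against 22.8, 5.99 and 61.9 CPM in Gata2+/+ libraries (log2 fold change -4.27, DESeq2 adjusted p = 0.000694). On the other side, Higd1a, a small mitochondrial protein, had 18.2, 67.8 and 14.9 CPM in Gata2+/f libraries, against 5.84, 11.3 and 5.26 CPM in Gata2+/+ libraries (log2 fold change 2.17, DESeq2 adjusted p = 0.0129), and Tfrc, the transferrin receptor, 321, 244 and 184 CPM in Gata2+/f libraries, against 157, 59.4 and 96.9 CPM in Gata2+/+ libraries (log2 fold change 1.26, DESeq2 adjusted p = 0.0435). Known targets of HIF thus lay on both sides, as they did among the 36.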

How the data were processed

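The deposited values are RSEM expected counts per Ensembl gene, 1 column per library, with no normalization; 11.7% of values were not whole. RSEM 1.3.0, STAR 2.5.4a and CASAVA 1.8.2 are named in the submitters' processing notes, with the build GRCm38; per the labels' protocols the libraries were poly-A selected and stranded, and the annotation release and strand setting are not given in the sources used here. Symbols came from GENCODE M21 (97.5% of IDs).

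Expected counts were rounded and tested with edgeR 4.0.16 in R 4.3.3: TMM (factors 0.821 to 1.11), filterByExpr (minimum count 10; 15432 genes), glmQLFit and glmQLFTest with no covariate, and Benjamini-Hochberg adjustment over all tested genes at 0.05. CPM use the TMM factors. Isozyme shares use CPM per kb of merged exon, summed over the members of a family only, with exact permutation tests over libraries (scipy 1.17.1). Alternatives were DESeq2 1.42.0, limma voom 3.58.1, the newer quasi-likelihood form, other scalings and filters, and leaving out each library. Scripts were tested on simulated data. No pair of libraries was a duplicate (chi-square per gene 223 or more). The labels do not say more than that each library is a separate sample, so p-values measure the spread between these samples.

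The members and lists were chosen with earlier results of these data known. All 36 members are named, with values per library where groups, or the shares of an isozyme family, did not overlap, and for others shown to describe a library that stands apart; up to 4 genes with the smallest p are named per pathway list, and from the marker lists a gene at 0 or one that defines the list.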

Additional observations from a re-analysis of the deposited data

How the results depend on the processing

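No paired analysis was possible because the groups share no replicate number. The count of all genes past the threshold was 0 with edgeR's quasi-likelihood test, 1809 with DESeq2, 9 with limma voom, 32 with the newer quasi-likelihood form, 19 with no filter on low counts, and 0 to 66 when 1 library was left out (66 without Gata2+/f replicate 11, 1 without Gata2+/+ replicate 6). The count of members was 4 with DESeq2 and 0 to 0 when 1 library was left out. Members whose groups did not overlap numbered 3 to 10 higher and 6 to 9 lower in Gata2+/f when 1 library was left out; the higher count was 10 without Gata2+/f replicate 7, 6 without Gata2+/+ replicate 6 and 4 without Gata2+/+ replicate 5, and the lower count was 9 when Gata2+/f replicate 11 was left out and 8 when Gata2+/f replicate 9 was. Groups with fewer libraries overlap less often by construction. The share over all tested genes was not counted with 1 library left out, so these counts have no background to be read against. The median log2 fold change ran from -0.12 to 0.25 over all members, from 0.083 to 0.48 over the 17 enzymes and from -0.77 to -0.38 over the 12 HIF and stress-responsive genes when 1 library was left out. The difference in the Pfkp share was -18.4 percentage points with no division by length (-10.2 with it), and that in the P4ha1 share was 6.54 with the longest transcript length and 5.07 with no division (3.43 with merged exons).

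Of the members' log2 fold changes under an alternative, 439 kept their direction and side of the threshold. A further 4 passed it (those called by DESeq2), and 24 changed sign. The genes whose sign changed had log2 fold changes from -0.24 (Egln1) to 0.40 (Pdk1) in the main fit, and the cause was not tested. Upper quartile scaling gave 0.0039 for Hk1, 0.11 for Pkm and 0.14 for Bnip3, and the filter of 1 CPM in 3 libraries gave 0.011 for Pkm and 0.019 for Bnip3. When 1 library was left out, log2 fold changes ran from -0.30 to 0.14 for Hk1, -0.15 to 0.27 for Gpi1, -0.68 to 0.083 for Pfkm, -0.14 to 0.47 for Gapdh, -0.11 to 0.57 for Pgam1, -0.25 to 0.30 for Pkm, -0.49 to 0.82 for Pdk1, -0.047 to 0.18 for Pdk3, -0.94 to 0.46 for Bnip3 and -0.68 to 0.15 for Egln1. Those of Gapdh, Pgam1, Gpi1 and Pdk1 turned negative without Gata2+/f replicate 9. No test for an outlying library was made in groups of 3.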

Other observations

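Hif3a, a HIF alpha subunit that can oppose the others, had 0.863, 64.9 and 1.09 CPM in Gata2+/f libraries, against 1.58, 2.18 and 2.16 CPM in Gata2+/+ libraries, so that 1 library, Gata2+/f replicate 9, held nearly all of its RNA. Pklr, the pyruvate kinase of liver and red cells, had 117, 14.0 and 1.38 CPM in Gata2+/f libraries, against 0.12, 0.085 and 34.6 CPM in Gata2+/+ libraries. Aco1, the cytosolic aconitase that also senses iron, had 16.1, 163 and 20.3 CPM in Gata2+/f libraries, against 7.74, 23.6 and 9.47 CPM in Gata2+/+ libraries. Epas1, which codes for HIF-2 alpha, had 0.0707, 0.134 and 14.4 CPM in Gata2+/f libraries, against 8.22, 5.33 and 9.44 CPM in Gata2+/+ libraries. Hif3a and Aco1 were highest in Gata2+/f replicate 9, Pklr in Gata2+/f replicate 7 and Epas1 in Gata2+/f replicate 11. These 4 genes were chosen after their values were seen.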
